A study of Rattus norvegicus with 12 samples.

Results

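The genes of the cytosolic translation initiation and elongation factors were followed in rat renal cortex after bromodichloromethane (BDCM), which forms when drinking water is chlorinated and is toxic to the rodent kidney. Members were taken by name alone: every array probe whose RefSeq transcript belongs to a gene with a symbol starting in Eif1 to Eif6 or in Eef1 or Eef2, without the Eif2ak kinases. This gave 120 probes for 53 genes, of 15284 genes named on an array of 61657 non-control probes. All 53 genes had signal well above background on all 12 arrays, so none was lost to the filter on dim probes. Eif4g1 and Eif5 had no probe that mapped to them here. Where a gene had several probes, the one with the highest mean signal stands for it.

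The 12 animals were male Sprague-Dawley rats, stock Crl:CD(SD), bought at 5 weeks of age, with 1 array per animal and 3 animals in each of 4 groups. In the CO2-O2 experiment (B92), 1 group received BDCM at 200 mg/kg per day for 4 weeks and its controls received corn oil, and both were bled under CO2-O2 (4:1) anaesthesia. In the isoflurane experiment (B103), the BDCM group and the corn oil group were handled in the same way but bled under isoflurane. Sampling followed the final dose by 24 h in every animal. Values are log2 of the processed signal after scaling to the 75th percentile of each array, called signal here, and 0 is the level of that percentile. Levels of different genes are not comparable on this scale, because each is read through its own probe.

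The arrays differed in the signal of the liver transcript Alb. Alb, the serum albumin gene, had -0.69, -5.79 and -8.07 in BDCM animals and -6.28, -5.72 and -2.97 in oil controls with isoflurane, where it was well above background on 2 of 6 arrays, and 0.60, 1.19 and 1.49 against 0.79, 1.66 and -1.44 with CO2-O2. The sum over 10 hepatocyte markers did not follow Alb with isoflurane (15.1, 14.0 and 18.4 in BDCM animals, 9.92, 9.82 and 7.72 in controls). In CO2-O2 controls, at 15.4, 23.4 and 11.9, it ranked the animals as Alb did. Without the 2 isoflurane animals of high Alb signal (BDCM animal 1 and control animal 3), 26 members rose in the mean of both experiments. The counts were 14 with CO2-O2 and 19 with isoflurane, against 30, 18 and 27 with them. The share of all features called without them is not given here. Ttr, another hepatocyte marker, was also highest of its group in these 2 animals (-0.98 and -4.06).

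Translation starts when initiation factors bring the small ribosomal subunit, the initiator tRNA and the capped mRNA together, and it goes on when elongation factors deliver each aminoacyl-tRNA and move the ribosome along. Cells control the process mainly at the eIF2 complex, which stress kinases phosphorylate, and at the cap-binding protein eIF4E, which 4E-binding proteins hold back until the kinase complex mTORC1 releases it. Many mRNAs of elongation factors and ribosomal proteins begin with a run of pyrimidines, the 5′ terminal oligopyrimidine (TOP) tract, through which mTORC1 signalling governs how well they are translated.

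The start sites of 6 members are shown because they differ in the longest run of C and T near the annotated start. They include genes that rose and genes that did not pass the test. The longest run may lie before the start, so it need not be a TOP tract. Each line gives 30 bases around the annotated start from RefSeq (GRCr8), 15 before it and 15 from it onwards, on the strand of the gene, with the longest run of C and T in capitals.
Eef1a1 (chr8:88225055-88225084, minus strand): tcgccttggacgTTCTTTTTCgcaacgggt
Eef1b2 (chr9:72074076-72074105, plus strand): tttccggccggtcccggCCCTTTTTCTCCC
Eif3m (chr3:111897179-111897208, minus strand): cgtaacaccgtgtggtaccgCTCCTTTTCC
Eif2s3 (chrX:62933685-62933714, minus strand): ggcggcagccgagcaTTTTCCTTTTCTCTC
Eif5a (chr10:55143207-55143236, minus strand): ggcgCTagaggcggcggcggcggcggcagc
Eif4e (chr2:229740738-229740767, plus strand): agcggttgtgcgatcagatcgaTCTaagat
The run was 9 bases long in Eef1a1, 13 in Eef1b2, 10 in Eif3m and 15 in Eif2s3, all of which rose. These 4 are not typical of the genes that rose, of which 7 of 25 with a start site had a run of 8 or more, and Eif2b3, which rose as well, had a longest run of 3. In Eef2, which had the largest rise among the elongation factors, the longest run was 4. The run was 2 bases in Eif5a and 3 in Eif4e, neither of which passed the test.

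Averaged over both experiments, 30 of the 53 genes rose under BDCM, where 17.7% of all 34218 features tested rose, and 2 fell, where 20.4% of all features fell. The remaining 21 did not pass the test (limma, Benjamini-Hochberg adjusted p under 0.05 over all features). The median effect of the 53 genes was 0.26 on the log2 scale, against -0.04 over all features. The rise was spread unevenly over the roles. It took in 5 of 6 elongation factors, all 4 of their modifiers and partners, and 10 of 11 eIF3 subunits. In the group of eIF2, its exchange factor and Eif2d, 5 of 10 genes rose. So did 3 of 5 of the eIF1 and eIF1A family, and 1 of 4 of the eIF5A, eIF5B and eIF6 group. The rise took in 1 of 9 genes of the eIF4 cap-binding and helicase factors, and 1 of 4 eIF4E-binding proteins, which had the largest effect of all members.

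**Figure D1:**
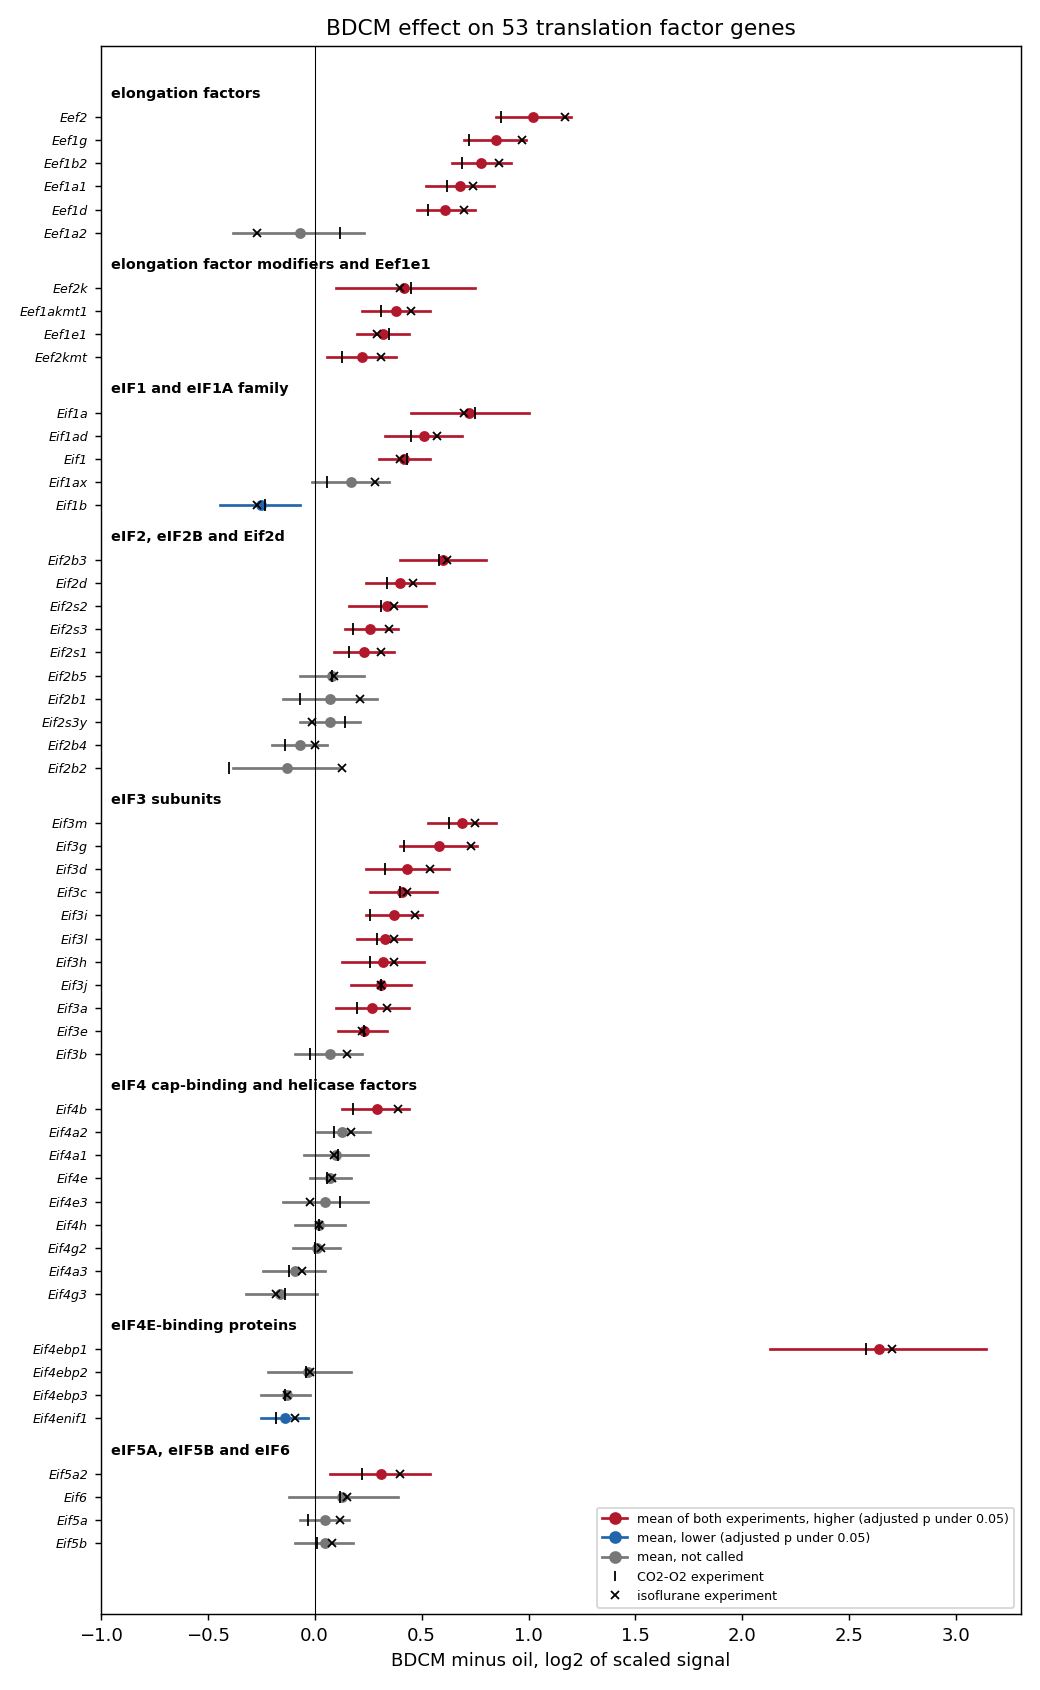
BDCM minus oil on the log2 scale (horizontal axis) for each of the 53 genes, grouped by role: dots with bars are the mean of both experiments with its 95% confidence interval, the tick is the CO2-O2 effect and the cross the isoflurane effect. Eif4ebp1 stands at 2.64, the elongation factors other than Eef1a2 lie between 0.61 and 1.02, and the eIF4 factors lie between -0.16 and 0.29 at their brightest probes (2 dimmer probes of Eif4b, not plotted, stand at 1.23).

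Among elongation factors, the 5 genes that rose were those of eEF2 and of the eEF1A and eEF1B subunits, at medians of 0.66 in the CO2-O2 and 0.80 in the isoflurane experiment over the 6 genes. Eef2 encodes the GTPase that translocates the ribosome. Its signal was 6.13, 6.25 and 6.11 in BDCM animals of the CO2-O2 experiment, against 5.33, 5.24 and 5.31 in oil controls. With isoflurane it was 6.54, 6.81 and 6.35 in BDCM animals, against 5.37, 5.31 and 5.50 in controls. Every BDCM animal lay above every control of its experiment, and the rise was 1.02 ± 0.08 (SE, n = 6 per treatment; 2.03-fold, 95% confidence interval of the log2 effect 0.85 to 1.20; adjusted p = 6.08e-06).

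Eef1g encodes eEF1Bγ, a structural subunit of the complex that recharges eEF1A with GTP. It had 6.25, 6.56 and 6.34 under BDCM, against 5.64, 5.66 and 5.69 in oil controls with CO2-O2. With isoflurane it had 6.28, 6.50 and 6.29 under BDCM, against 5.41, 5.39 and 5.35 in controls. The groups did not overlap in either experiment, and the rise was 0.85 ± 0.07 (1.80-fold; adjusted p = 6.58e-06).

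Eef1b2, the nucleotide exchange subunit, whose start site above carries a run of 13 pyrimidines, had 6.72, 6.85 and 6.73 under BDCM, against 6.07, 6.08 and 6.07 in oil controls with CO2-O2. With isoflurane it had 6.79, 7.07 and 6.79 under BDCM, against 6.04, 6.09 and 5.94 in controls. Controls of the CO2-O2 experiment were almost equal to each other and all treated animals lay well above them (0.78 ± 0.06, 1.71-fold; adjusted p = 9.0e-06).

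Eef1a1, the main form of the factor that carries aminoacyl-tRNA to the ribosome, had 7.64, 7.55 and 7.38 under BDCM, against 7.01, 6.77 and 6.92 in oil controls with CO2-O2. With isoflurane it had 7.48, 7.73 and 7.50 under BDCM, against 6.76, 6.87 and 6.88 in controls. The groups were separate in both experiments (0.68 ± 0.07, 1.60-fold; adjusted p = 6.32e-05). Eef1a1 has many near-identical processed copies in mammalian genomes, which a probe may not tell apart; this was not tested.

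Eef1d, which encodes the other exchange subunit, eEF1Bδ, had 6.15, 6.24 and 6.12 under BDCM, against 5.59, 5.63 and 5.70 in oil controls with CO2-O2. With isoflurane it had 6.22, 6.48 and 6.23 under BDCM, against 5.62, 5.65 and 5.55 in controls. The groups were again separate (0.61 ± 0.06, 1.53-fold; adjusted p = 3.42e-05). Eef1a2, the form of eEF1A found in adult muscle and neurons, did not pass on its brighter probe. It had 0.74, 0.56 and 0.33 under BDCM, against 0.58, 0.17 and 0.53 in oil controls with CO2-O2. With isoflurane it had 0.26, -0.37 and 0.29, against 0.13, 0.46 and 0.40, so the groups overlapped in both experiments (effect -0.07 ± 0.14, adjusted p = 0.699). The direction depends on the probe: the second, dim probe of Eef1a2 rose by 1.07 (adjusted p = 0.00607), and with the mean of probes Eef1a2 stood at 0.50 in the mean and 0.69 with isoflurane (adjusted p = 0.0206 and 0.0314). Of 8 skeletal muscle marker genes tested, Tnnc2 fell (by 0.49), where 20.4% of all features fell, and 7 did not pass.

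**Figure D2:**
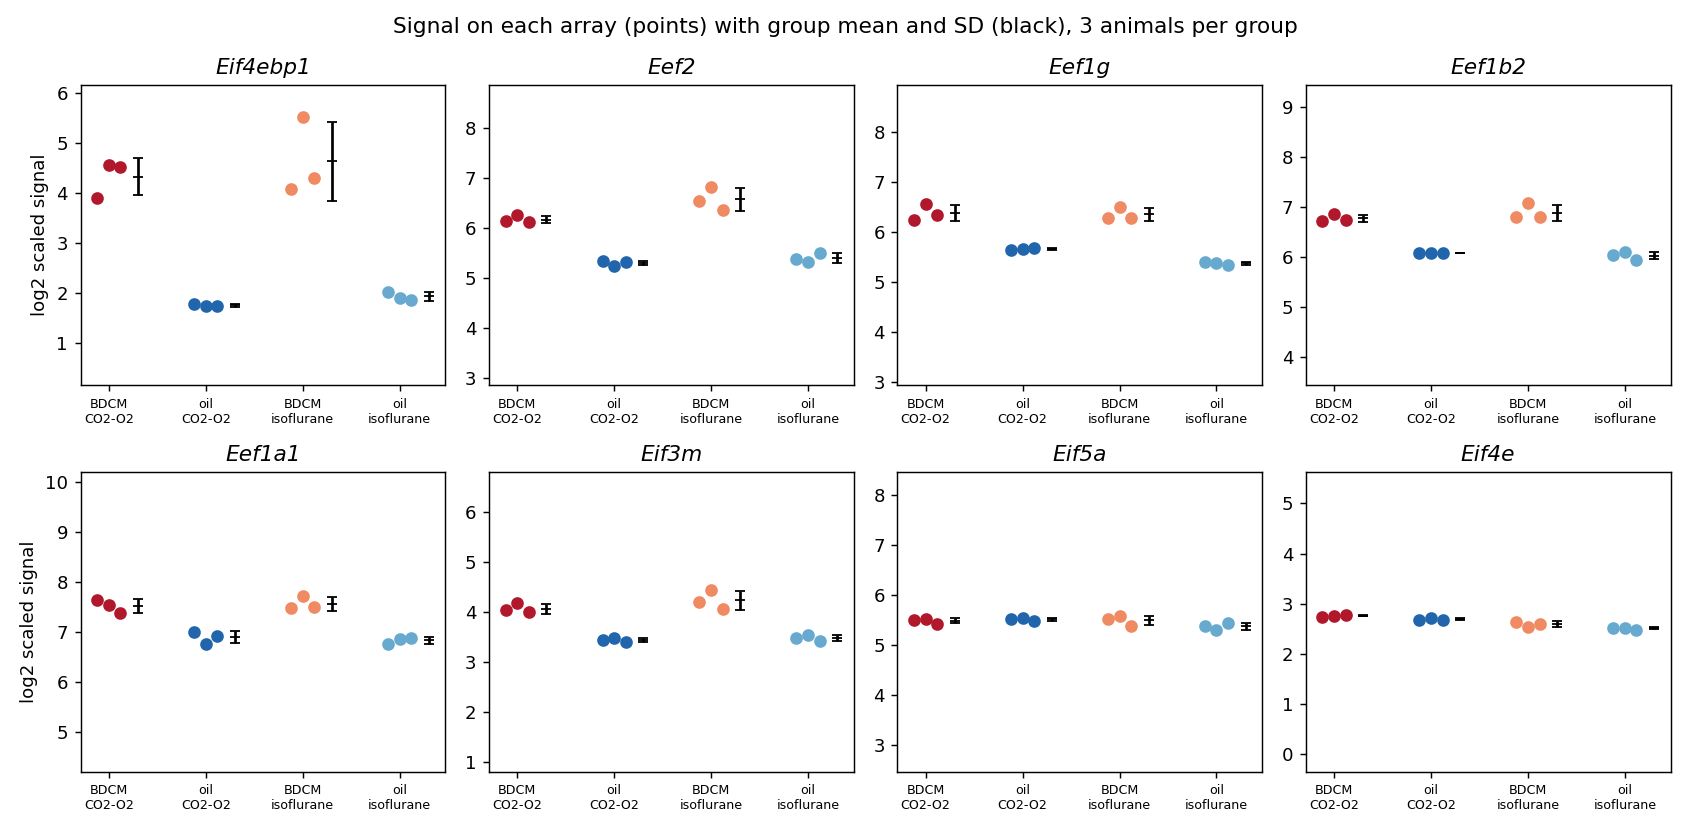
Signal (vertical axis, log2 of the scaled signal) on each of the 12 arrays for 8 genes, by group, with the group mean and SD in black; every panel spans the same log2 range. The 6 rising genes separate BDCM from oil in both experiments, by 2.64 for Eif4ebp1 and by 0.68 to 1.02 for the other 5, while Eif5a (effect 0.05) and Eif4e (0.07) stay close to their controls.

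The genes that modify or accompany the elongation factors also rose, with smaller effects (0.22 to 0.42, median 0.35). Eef1e1 encodes a protein of the multi-synthetase complex related to eEF1B (0.32 ± 0.05, adjusted p = 0.00109), and Eef1akmt1 encodes a lysine methyltransferase of eEF1A (0.38 ± 0.07, adjusted p = 0.00238). For both, BDCM animals lay above controls in each experiment. Eef2k, the kinase that inhibits eEF2 by phosphorylation, had -0.31, -0.05 and -0.19 under BDCM, against -0.43, -0.89 and -0.59 in oil controls with CO2-O2. Under isoflurane its signal was -0.52, 0.36 and -0.19, against -0.71, -0.52 and -0.31, and these groups overlapped. Its rise of 0.42 ± 0.15 (adjusted p = 0.0447) and that of Eef2kmt, the eEF2 lysine methyltransferase (0.22 ± 0.07, adjusted p = 0.0377), lay close to the threshold. Each of these 2 calls ended when any 1 of 9 animals was left out, with adjusted p between 0.0518 and 0.0997 for Eef2k and between 0.0568 and 0.0804 for Eef2kmt.

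In the eIF1 and eIF1A family, which keeps the scanning ribosome open until the start codon is found, 3 genes rose and 1 fell. Eif1a, an eIF1A gene, had 0.69, 1.10 and 1.19 under BDCM, against 0.29, 0.28 and 0.17 in oil controls with CO2-O2. In the isoflurane experiment it had 0.14, 0.85 and 0.38 under BDCM, against -0.23, -0.18 and -0.32 in controls. Treated animals varied more than controls but none overlapped them (0.72 ± 0.12, 1.65-fold; adjusted p = 0.00129). Eif1ad, named for an eIF1A domain, rose by 0.51 ± 0.08 and Eif1, which guards the choice of start codon, by 0.42 ± 0.05 (adjusted p = 9.2e-04 and 2.09e-04). Eif1b, a close relative of Eif1, went the other way. It had 1.67, 1.33 and 1.62 under BDCM, against 1.65, 1.92 and 1.75 in oil controls with CO2-O2, where the ranges overlapped. The isoflurane arrays gave 1.36, 1.02 and 1.12 under BDCM, against 1.43, 1.44 and 1.45 in controls, without overlap (fell by 0.25 on the log2 scale, SE 0.08; adjusted p = 0.0368). The call of Eif1b ended without any 1 of 8 animals (adjusted p 0.0640 to 0.0854).

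The eIF2 complex brings the initiator tRNA, and the guanine nucleotide exchange factor eIF2B restores it after each round. All 3 subunit genes of eIF2 itself rose modestly. Eif2s1, the α subunit whose phosphorylation lowers initiation, had 3.55, 3.66 and 3.56 under BDCM, against 3.46, 3.43 and 3.41 in oil controls with CO2-O2. Under isoflurane its signal was 3.41, 3.76 and 3.49, against 3.27, 3.22 and 3.26, and the groups were separate in both experiments (0.23 ± 0.06, adjusted p = 0.0162). Eif2s2, the β subunit, rose by 0.34 ± 0.08 and Eif2s3, the γ subunit encoded on the X chromosome, by 0.26 ± 0.06 (adjusted p = 0.00883 and 0.00429). Eif2s3y, its Y-linked counterpart, had an effect of 0.07 ± 0.06 that did not pass the test (adjusted p = 0.434; these are male rats). Eif2d, which can place the initiator tRNA without eIF2, rose by 0.40 ± 0.07 on its brightest probe (adjusted p = 0.00192), while its other 2 probes, at 0.23 and 0.19, did not pass (adjusted p = 0.0728 and 0.0571).

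Of the 5 eIF2B subunits, Eif2b3 (γ, which pairs with the catalytic subunit) rose and the other 4 did not pass the test. Eif2b3 had 0.36, 0.62 and 0.53 under BDCM, against 0.09, -0.22 and -0.11 in oil controls with CO2-O2. In the isoflurane experiment it had 0.45, 0.90 and 0.53 under BDCM, against 0.02, 0.05 and -0.04 in controls. No treated animal reached down to a control (0.60 ± 0.09, 1.51-fold; adjusted p = 6.28e-04). Eif2b5, the catalytic ε subunit, had 1.20, 1.38 and 1.27 under BDCM, against 1.21, 1.19 and 1.22 in controls with CO2-O2, and 1.66, 1.75 and 1.42 against 1.43, 1.51 and 1.63 with isoflurane (0.08 ± 0.07, adjusted p = 0.375). The regulatory subunit Eif2b1 had 0.08, 0.39 and 0.31 under BDCM, against 0.50, 0.36 and 0.11 in controls with CO2-O2, and 0.26, 0.55 and 0.35 against 0.40, 0.12 and 0.01 with isoflurane (0.07 ± 0.10, adjusted p = 0.616). Both genes overlapped between treatments in each experiment.

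Eif2b4, the δ subunit, had 0.82, 1.03 and 0.81 under BDCM, against 1.05, 0.99 and 1.03 in controls with CO2-O2, and 1.02, 1.15 and 1.09 against 1.10, 0.99 and 1.17 with isoflurane (-0.07 ± 0.06, adjusted p = 0.389). Eif2b2, the β subunit, had 4.38, 4.61 and 4.41 under BDCM, against 4.74, 4.88 and 4.98 in controls with CO2-O2, a separation downwards. The isoflurane arrays gave 4.49, 4.97 and 4.92 under BDCM, against 4.67, 4.40 and 4.91, an overlap (mean effect -0.13 ± 0.11, adjusted p = 0.371). Eif2b2 was the member whose effect differed between experiments at an unadjusted limma p under 0.05, by 0.53 (95% confidence interval 0.04 to 1.03). This was 1 of 53 members (1.89%), where 5.06% of all features reached that level. After adjustment Eif2b2 did not pass.

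eIF3 is the large scaffold that binds the small ribosomal subunit, and 10 of its 11 measured subunit genes rose together, with effects of 0.23 to 0.69. Eif3m had 4.04, 4.19 and 4.00 under BDCM, against 3.45, 3.49 and 3.41 in oil controls with CO2-O2. Under isoflurane its signal was 4.20, 4.45 and 4.07 under BDCM, against 3.49, 3.54 and 3.43 in controls. This subunit, with the run of 10 pyrimidines above, showed a wide gap between treatments (0.69 ± 0.07, 1.61-fold; adjusted p = 4.42e-05). Eif3g, an RNA-binding subunit, had 2.42, 2.67 and 2.43 under BDCM, against 2.10, 2.05 and 2.10 in controls with CO2-O2. In the isoflurane experiment it had 2.90, 3.23 and 2.80 under BDCM, against 2.23, 2.23 and 2.28, again without overlap (0.58 ± 0.08, 1.49-fold; adjusted p = 3.74e-04).

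The 8 other eIF3 genes that rose were Eif3d (0.43), Eif3c (0.41), Eif3i (0.37), Eif3l (0.33), Eif3h (0.32), Eif3j (0.31), Eif3a (0.27) and Eif3e (0.23). Of the 11 genes, 9 had every BDCM animal above every control in both experiments, where 13.5% of all features did. Eif3b, which encodes a core scaffold subunit, was the member that did not pass (0.07 ± 0.07, adjusted p = 0.471). It had 2.40, 2.60 and 2.49 under BDCM, against 2.60, 2.42 and 2.53 in oil controls with CO2-O2, and 2.68, 2.79 and 2.50 against 2.52, 2.39 and 2.60 with isoflurane.

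The eIF4 factors, which bind the cap and unwind the mRNA, had 1 call among 9 genes and a median effect of 0.05. Eif4e, the cap-binding protein itself, had 2.74, 2.76 and 2.77 under BDCM, against 2.67, 2.72 and 2.68 in oil controls with CO2-O2. The isoflurane arrays gave 2.64, 2.53 and 2.60, against 2.52, 2.52 and 2.48. All treated animals lay above the controls of their experiment, but by so little that the test was not passed (0.07 ± 0.04, 95% confidence interval -0.02 to 0.17; adjusted p = 0.214). The helicase genes Eif4a1 (0.10, interval -0.05 to 0.25), Eif4a2 (0.13, 0.01 to 0.26) and Eif4a3 (-0.09, -0.24 to 0.05) did not pass. Neither did the scaffold genes Eif4g2 (0.01, -0.10 to 0.12) and Eif4g3 (-0.16, -0.32 to 0.01), the helicase cofactor Eif4h (0.02, -0.09 to 0.14) or the cap-binding relative Eif4e3 (0.05, -0.15 to 0.25). The intervals of these genes exclude a change as large as that of any elongation factor that rose. The helicase cofactor Eif4b was the 1 that rose (0.29 ± 0.07, adjusted p = 0.00876), and 2 of its 6 probes, 1 of them nearly as bright, rose by 1.23.

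Of the 4 genes of eIF4E-binding proteins, Eif4ebp1 alone rose. Eif4ebp1, the inhibitor that mTORC1 phosphorylates, had 3.89, 4.56 and 4.52 under BDCM, against 1.77, 1.74 and 1.73 in oil controls with CO2-O2. Under isoflurane its signal was 4.07, 5.52 and 4.29 under BDCM, against 2.02, 1.90 and 1.86 in controls. Controls were tightly grouped in each experiment and treated animals spread widely above them. The rise was 2.64 ± 0.23 (6.22-fold, 95% confidence interval of the log2 effect 2.13 to 3.14; adjusted p = 1.26e-05), with 2.58 ± 0.32 in the CO2-O2 and 2.70 ± 0.32 in the isoflurane experiment (adjusted p = 4.61e-04 and 2.19e-04).

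Neither paralog passed the test. Eif4ebp2 had 2.22, 1.72 and 1.96 under BDCM, against 2.01, 1.97 and 2.04 in controls with CO2-O2, and 2.50, 2.19 and 2.26 against 2.38, 2.32 and 2.32 with isoflurane (-0.03 ± 0.09, adjusted p = 0.825). Eif4ebp3 had 1.32, 1.34 and 1.25 under BDCM, against 1.40, 1.52 and 1.42 with CO2-O2, and 1.51, 1.64 and 1.63 against 1.63, 1.74 and 1.79 with isoflurane (-0.13 ± 0.05, adjusted p = 0.0707). Eif4enif1 encodes the transporter that takes eIF4E into the nucleus and represses bound mRNAs. It had 0.45, 0.60 and 0.47 under BDCM, against 0.61, 0.72 and 0.74 with CO2-O2, and 0.74, 0.73 and 0.73 against 0.85, 0.77 and 0.87 with isoflurane. The groups were separate in both experiments, the only member of which this held downwards, where 13.1% of all features did the same (fell by 0.14, SE 0.05; adjusted p = 0.0499). This call, at the threshold, ended without any 1 of 10 animals (adjusted p 0.0515 to 0.112).

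In the last group, Eif5a, the factor that carries hypusine and helps ribosomes past stalling sequences, had 5.49, 5.52 and 5.42 under BDCM, against 5.51, 5.54 and 5.48 in oil controls with CO2-O2. In the isoflurane experiment it had 5.51, 5.57 and 5.38, against 5.37, 5.30 and 5.43. The ranges overlapped in both experiments (0.05 ± 0.05, 95% confidence interval -0.07 to 0.16; adjusted p = 0.526). Its minor isoform Eif5a2 had -2.32, -2.69 and -2.45 under BDCM, against -2.76, -2.97 and -2.38 with CO2-O2, and -2.65, -2.51 and -2.55 against -2.99, -3.07 and -2.83 with isoflurane. It rose by 0.31 ± 0.11 (adjusted p = 0.0424), a call that ended without any 1 of 9 animals (adjusted p 0.0519 to 0.0898). Eif5b, the subunit-joining GTPase (0.05 ± 0.06), and Eif6, which keeps free large subunits apart from small ones (0.13 ± 0.12), did not pass the test.

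Taken experiment by experiment, 18 members rose with CO2-O2, where 10.0% of all features rose, and 27 with isoflurane, where 13.2% did. None passed the test downwards in either experiment, where 9.89% and 12.9% of all features fell. By limma's unadjusted p under 0.05, in either direction, 25 members (47.2%) passed with CO2-O2 and 31 (58.5%) with isoflurane, where 33.9% and 38.2% of all features did. Without overlap between groups, 27 members lay above controls in both experiments, where 13.5% of all features did. The count with CO2-O2 fell to 11 without control animal 2, without control animal 3 or without BDCM animal 2, each time on its own. Across the 53 genes the effects of the 2 experiments, which share no animals, had a Pearson correlation of 0.95, or 0.90 without Eif4ebp1, beside 0.77 over all features; genes are not independent replicates, and no p is given. The sign was the same for 44 genes and the effect was larger in absolute size with isoflurane for 38, but the difference of effects passed the test for none, where 0% of all features passed it in either direction.

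**Figure D3:**
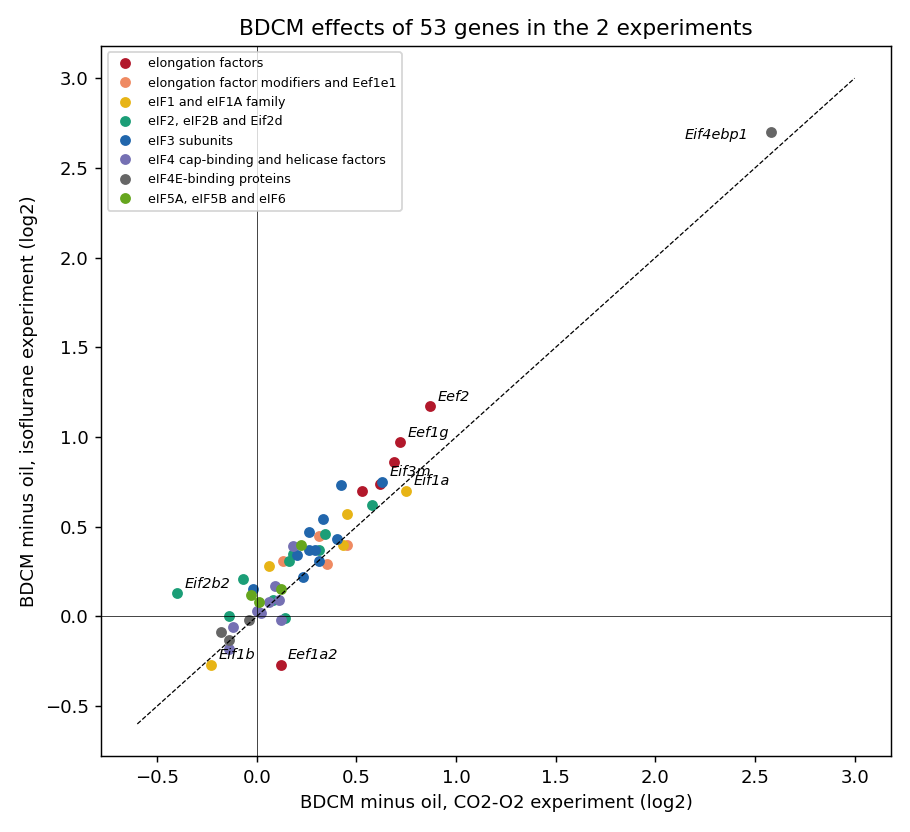
BDCM effect in the CO2-O2 experiment (horizontal, log2) against that in the isoflurane experiment (vertical, log2), 1 point per gene coloured by role, with the line of equal effects dashed. Of the 53 points, 41 lie above the line, and Eif2b2 and Eef1a2 lie off it in opposite directions.

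Within the treated groups the size of the rise differed by array. Of the 30 genes that rose, animal 2 of the BDCM group had the highest signal of its group for 22 in the CO2-O2 experiment and for 28 in the isoflurane experiment. No control animal was the highest of its group for more than 14 of them. In the CO2-O2 experiment, BDCM animal 2 was on slide 1 and scan day 1, and BDCM animals 1 and 3 were on slide 2 and scan day 2. Animal, slide and scan day cannot be told apart there, and the same count was not made over all features. On slide 1, which held 1 BDCM array (animal 2) and all 3 control arrays of the CO2-O2 experiment, all 30 effects were above 0 (median 0.44). On slide 4, with 2 BDCM and 1 control array of the isoflurane experiment, all 30 were above 0 as well (median 0.49). The same held among the 2 BDCM and 3 control arrays of scan day 3 (median 0.51). These genes were picked by their rise on the same arrays, so the shared sign is in part built in. With slide as a fixed block in the fit, 24 members rose in the mean of both experiments, 9 with CO2-O2 and 9 with isoflurane, and the calls of Eif2s1, Eif2s2 and Eif2s3 ended (adjusted p = 0.0918, 0.0513 and 0.103). With scan day as the block, 28, 16 and 27 rose. The share of all features called in these blocked fits is not given here, so the lower counts are not particular to the members.

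Marker genes of the kidney and of other cell types were measured on the same arrays. The 10 kidney tubule and glomerulus markers measured, all well above background, summed to 982 to 1140 under BDCM and 1300 to 1380 in oil controls with CO2-O2, and to 944 to 1180 against 1490 to 1510 with isoflurane (sums of linear scaled signals). Of them 0 rose and 7 fell. The hepatocyte list summed to 23.8 to 27.4 against 11.9 to 23.4, and to 14.0 to 18.4 against 7.72 to 9.92, with 2 of 10 rising and 2 falling, close to the 17.7% and 20.4% of all features. Leukocyte marker sums overlapped between treatments in both experiments (9 genes measured, 0 called), and muscle marker sums were 0.943 to 1.03 against 0.873 to 1.06, and 0.762 to 0.946 against 0.963 to 1.19. The part of cell composition in the changes above was not tested, and in bulk tissue fewer cells of a type and less RNA per cell cannot be told apart. Between 67.4 and 72.5% of non-control probes were well above background on each array, and 0 to 6 per array were saturated.

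Several genes had probes that did not give the same answer, which bears on the calls above. Of 118 member probes tested as features of their own (2 others were too dim), 71 rose, 3 fell and 44 did not pass. The share of all 43275 probes tested in this fit that rose or fell is not given here. Of 34 genes with at least 2 tested probes, 25 had the same call on all. Agreement was close for Eef1g (5 probes, 0.85 to 0.92), Eif4ebp1 (2 probes, 2.60 and 2.64), Eif2b3 (3 probes, 0.59 to 0.60) and Eif4g2 (8 probes, -0.11 to 0.04, none called).

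For Eif4b the probes fell into 2 sets. On 4 probes, the brightest among them, the rise was 0.22 to 0.29. On the other 2 it was 1.23 ± 0.09, with adjusted p of 4.09e-06 and 4.35e-06. On the brighter of these 2, signal was 4.45, 4.69 and 4.49 under BDCM, against 3.44, 3.40 and 3.50 in oil controls with CO2-O2. With isoflurane it was 4.68, 5.11 and 4.74, against 3.33, 3.63 and 3.46, a clear separation that the brightest probe did not show to this extent (4.30, 4.43 and 4.25 against 4.13, 4.07 and 4.23 with CO2-O2). All 6 probes are assigned to the same RefSeq transcript, and which part of the gene each one reads was not analysed here.

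Eif5a2 rose by 0.31 on its brighter and by 1.37 ± 0.21 on its dimmer probe (adjusted p = 7.19e-04). Eif1 rose on 2 probes (0.42 and 0.49) and not on the remaining 1 (0.03, interval -0.09 to 0.14). Eif1ax did not pass on its brightest probe (0.17) but rose on the other 2 (0.46 and 0.66). Eif3a rose on its brightest probe (0.27) and did not pass on the other 2 (0.25 and 0.20). Eif4e and Eif6, not called on their brightest probes, each rose on 1 other probe (0.19 and 0.26), and Eif4enif1 fell on 2 of 3 (range -0.25 to -0.14). Eif4a1 rose on 4 of 7 probes (range 0.04 to 0.29), none of them its 2 brightest. The second probe of Eef1a2 was well above background on 5 of 12 arrays.

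**Figure D4:**
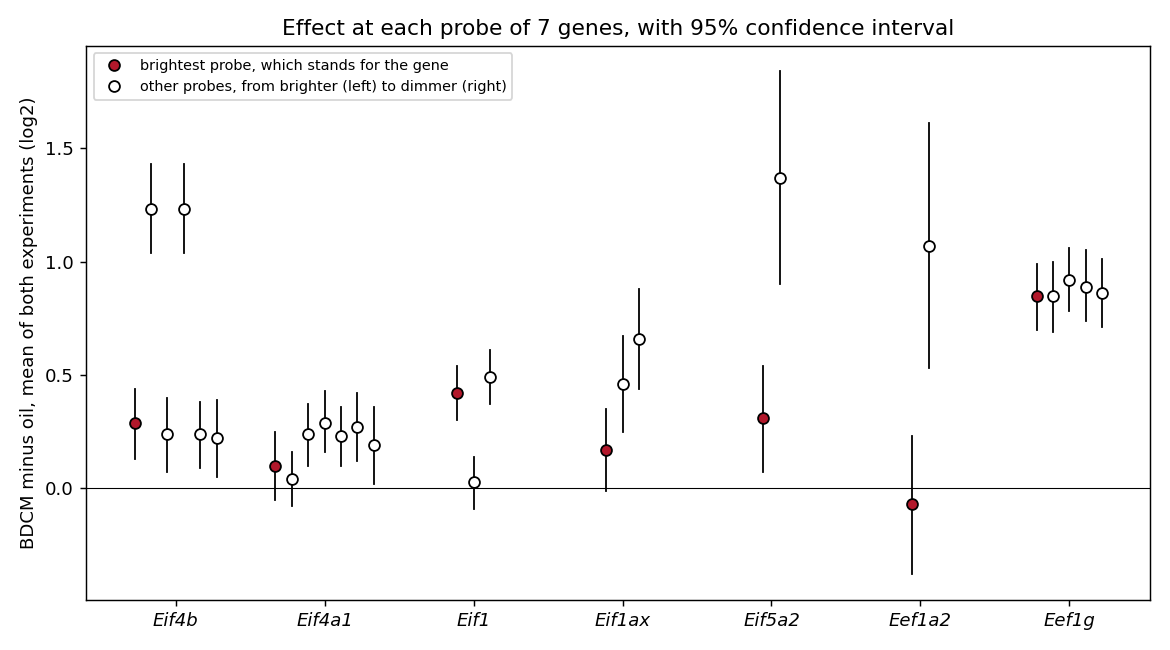
BDCM minus oil, mean of both experiments (vertical axis, log2), at each tested probe of 7 genes, with 95% confidence intervals and probes ordered from bright to dim within a gene. Probes of Eef1g lie together at 0.85 to 0.92, while 2 of the 6 Eif4b probes stand at 1.23 above the other 4.

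Among the partners of these factors, chosen as lists with earlier results of these data known, the poly(A)-binding proteins, which bridge the mRNA tail to the cap complex, were among those that rose; over all features 17.7% rose and 20.4% fell. Pabpc4 had 4.24, 4.38 and 4.30 under BDCM, against 3.36, 3.00 and 3.32 in oil controls with CO2-O2, and 4.43, 4.59 and 4.35 against 2.98, 3.07 and 3.11 with isoflurane (1.24 ± 0.08, 2.37-fold; adjusted p = 1.98e-06). Pabpc1, whose mRNA is a known TOP mRNA, rose by 0.88 ± 0.09 and the reinitiation factor Denr by 0.37 ± 0.06, while the nuclear cap-binding gene Ncbp1 fell by 0.79 (SE 0.10; adjusted p = 1.93e-04). In this list of 9, 3 rose and 1 fell (median -0.01). Of 6 termination and recycling genes 5 rose, among them Gspt2 (0.91) and Gspt1 (0.20), which encode eRF3 forms, Pelo (0.50), a rescue factor of stalled ribosomes, and Abce1 (0.39), which splits ribosomes (list median 0.30).

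The enzymes that make hypusine on eIF5A and diphthamide on eEF2 numbered 9, of which 5 rose and 1 fell (median 0.25). Dph5 (0.79), Dph1 (0.51) and Dnajc24 (0.25) of the diphthamide pathway and the deoxyhypusine hydroxylase Dohh (0.33) rose, and Dph2 fell by 0.17. Of 21 cytosolic aminoacyl-tRNA synthetase and complex genes 19 rose and 0 fell (median 0.61), with Wars1 at 1.54 and Sars1 at 1.20. The mitochondrial translation factors numbered 9, with 1 rising (Guf1, 0.16) and 1 falling (Gfm1, by 0.27) and a median of -0.01. Over all features 17.7% rose and 20.4% fell, and the mitochondrial counts lie below both shares.

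On the side of eIF2 signalling, 9 of 17 genes rose, where 17.7% of all features did, and 2 fell, where 20.4% did (median 0.20). The largest effects were those of Trib3 (4.44 ± 0.47), Asns (4.01 ± 0.14), Atf5 (3.71 ± 0.12) and Atf3 (2.74 ± 0.39), targets of the transcription factor ATF4, and Atf4 itself rose by 0.63 ± 0.15 (adjusted p = 0.00976). Eif4ebp1 is known as a target of ATF4 in mouse and human cells. Of the eIF2 kinases, Eif2ak4 (GCN2) rose by 0.30 ± 0.07, and Eif2ak1, Eif2ak2 and Eif2ak3 had effects of 0.00 to 0.12 that did not pass. Impact, an inhibitor of GCN2, fell by 0.27, and Ppp1r15b, a subunit of the phosphatase that reverses eIF2α phosphorylation, fell by 0.30.

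In the mTORC1 list 7 of 22 genes rose, where 17.7% of all features did, and 3 fell, where 20.4% did (median 0.09). The ribosomal protein gene Rps6, another TOP mRNA, rose by 0.77 ± 0.06 (adjusted p = 5.72e-06), the eIF4E kinase gene Mknk1 by 0.32, the mTORC1 subunit gene Rptor by 0.28 and Nprl2 by 0.21. Phosphorylation, through which this pathway acts, is not measured on these arrays. The genes that fell were Ddit4 (by 0.83), an inhibitor of mTORC1, the arginine sensor Castor1 (by 0.70) and Mtor (by 0.25).

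RefSeq start sites were found for 47 of the 53 genes; Eef1d, Eif3e, Eif3h, Eif4b, Eif4e3 and Eif4ebp1 had none in the table used. A run of 8 or more C or T letters on the strand of the gene lay in the 30-base window of 7 of the 25 genes that rose (28.0%), of 2 of the 20 that were not called (10.0%; Eif4h and Eif2s3y) and of 0 of the 2 that fell. The same was true of 11.4% of all 33469 promoters in the table. The 7 were Eif2s3, Eef1b2, Eef1akmt1, Eif3m, Eif3d, Eif3i and Eef1a1. In Eif3d and Eif3i, and in Eif2s3y among the genes not called, the run lay wholly before the annotated start. The motif TGATGNAA, the core of a C/EBP-ATF response element, was searched on both strands of the 300 bases from 250 before to 50 after the start. It lay in 2 members, Eif2s2 and Eif3g (4.3% of 47), against 4.0% of all promoters. These are counts of letters near annotated starts, and no list test was made.

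The members were also compared between experiments. Anaesthetic, experiment, slides and scan days coincide completely here, so that they cannot be told apart. Among oil controls 2 of 53 genes were higher with isoflurane than with CO2-O2, where 7.53% of all features were, and 2 were lower, where 3.56% were. Among BDCM animals 5 were higher (11.8% of all features) and 3 lower (5.25%). These counts lie near or below the shares over all features. Without overlap between the oil groups, 11 members were higher with isoflurane, where 23.7% of all features were, and 13 lower, where 15.3% were. The comparisons share no animals with each other. Fitted on the 6 BDCM arrays alone, no member passed among BDCM animals. By median scaling, 1 was higher and 6 lower in each comparison; over all features 67.9% of calls among controls were higher with isoflurane, and 37.8% by median scaling.

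Eif4e3 was higher with isoflurane in both at its brightest probe. Its signal was -1.51, -1.56 and -1.21 with isoflurane, against -2.05, -2.32 and -1.95 with CO2-O2 in BDCM animals. In oil controls it was -1.47, -1.31 and -1.46, against -2.36, -2.12 and -2.20, without overlap (0.68 ± 0.13, adjusted p = 0.00721, and 0.81 ± 0.13, adjusted p = 0.00442). This rests on 1 probe, since with the mean of its 3 probes the differences were -0.09 (adjusted p = 0.514) and 0.09 (adjusted p = 0.586). The other 2 probes were lower with isoflurane. Their means were -2.84 against -2.13 and -2.70 against -2.46 in BDCM animals. In controls they were -2.82 against -2.33 and -2.73 against -2.67.

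Eif1ax, an X-linked eIF1A gene, had 0.76, 0.80 and 0.59 with isoflurane, against 1.39, 1.09 and 1.28 with CO2-O2 in BDCM animals. In oil controls it had 0.55, 0.28 and 0.49, against 1.35, 1.12 and 1.10. At this brightest probe it was lower with isoflurane in both (-0.54 ± 0.11, adjusted p = 0.0124, and -0.75 ± 0.11, adjusted p = 0.00422). With the mean of its 3 probes neither difference passed (-0.14, adjusted p = 0.396, and -0.22, adjusted p = 0.234). Its second brightest probe went the opposite way, with means of 0.70 against 0.44 in BDCM animals and 0.24 against -0.03 in controls. The dimmest was lower with isoflurane (0.47 against 0.62, and -0.20 against -0.03).

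Eef1e1 had 1.20, 1.34 and 1.14 with isoflurane, against 1.52, 1.57 and 1.60 with CO2-O2 in BDCM animals, and 0.95, 0.95 and 0.91 against 1.28, 1.24 and 1.13 in oil controls (-0.34 and -0.28, adjusted p = 0.0149 and 0.0392). It is lower with isoflurane in both treatments, and BDCM animals stood above controls within each experiment. Eif4ebp3 was higher with isoflurane in both (0.29 and 0.27, adjusted p = 0.0280 and 0.0440). The control calls of these 2 genes ended without any 1 of 8 animals for Eef1e1 (adjusted p 0.0505 to 0.134) and of 9 for Eif4ebp3 (0.0532 to 0.142).

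Among BDCM animals, Eif3g (0.47 ± 0.11, adjusted p = 0.0203), Eef2 (0.40 ± 0.11, adjusted p = 0.0340) and Eif2b5 (0.33 ± 0.10, adjusted p = 0.0443) were higher and Eif2s3y (-0.33 ± 0.09, adjusted p = 0.0303) was lower with isoflurane. Among oil controls the differences of Eif3g, Eef2, Eif2b5 and Eif2s3y were 0.16, 0.10, 0.31 and -0.18, none of which passed. The BDCM effects of these 4 genes did not pass the test of a difference between experiments (adjusted p = 0.935 for Eif3g, Eef2 and Eif2s3y and 0.995 for Eif2b5). These 4 calls were each lost without single animals (adjusted p up to 0.0645 for Eif3g, 0.0936 for Eef2, 0.117 for Eif2b5 and 0.0891 for Eif2s3y).

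**Figure D5:**
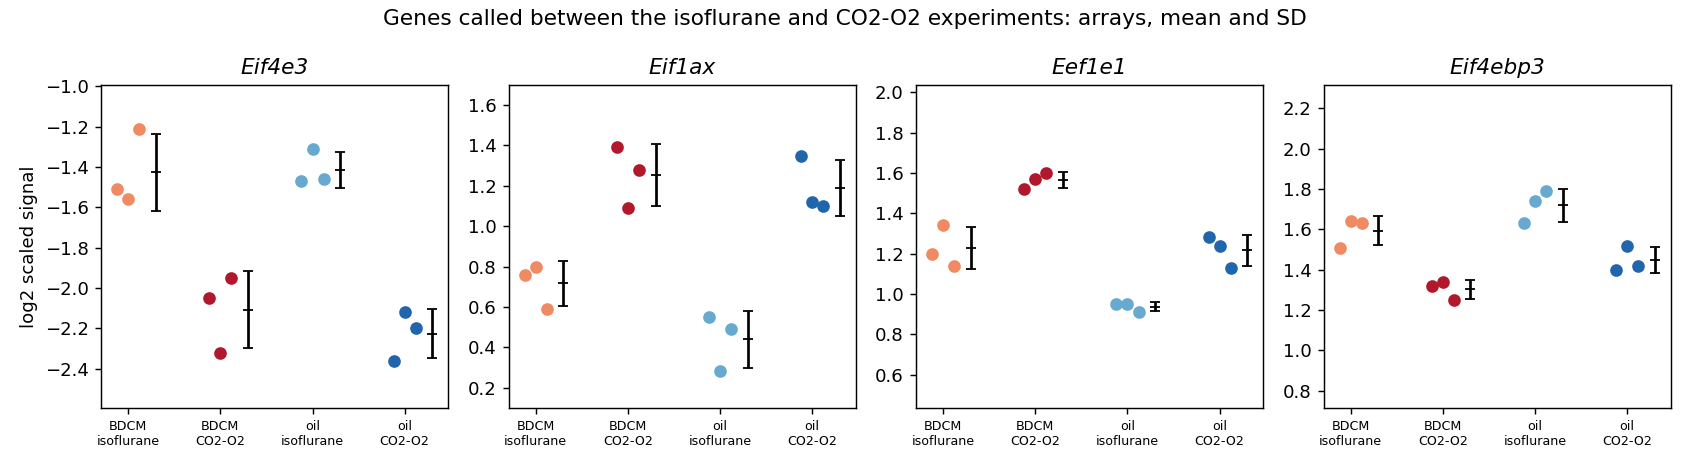
Signal (vertical axis, log2 of the scaled signal) on each array for 4 genes called between the experiments, with the group mean and SD; in each pair the isoflurane group is left of the CO2-O2 group. At the brightest probes, which are plotted, Eif4e3 and Eif4ebp3 are higher and Eif1ax and Eef1e1 lower with isoflurane, in BDCM animals and in controls alike. Other probes of Eif4e3 and Eif1ax, not plotted, go the opposite way.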

How the data were processed

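Scanner files of 12 one-colour Agilent arrays hold an intensity for each spot, background-subtracted by the authors in Feature Extraction, version 10.7 in the submitters' processing notes and 10.7.1.1 per the file headers. The deposited series table gives the ratio, not logged, of this signal to each array's 75th percentile. Its 6 CO2-O2 columns match another animal of the same group, so animals are numbered by scanner file, and the table served as an alternative. No depth exists for arrays, and 3 per group limit the precision.

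The processed signal was divided by the 75th percentile of each array and put on the log2 scale, with 115 outlier spots masked. Probes were named through RefSeq accessions (RefSeq table of GRCr8, 27460 probes with 1 symbol). Of 49397 features, 34218 were kept because some group had them well above background on its 3 arrays. limma 3.58.1 (R 4.3.3) fitted 1 mean per group with Benjamini-Hochberg adjustment over all of them. Intervals are 95%. The limma fit was tested on simulated data, but the scaling, masking, probe choice and filter before it were not. Nothing in the labels says how animals were allocated beyond 3 biological replicates per group.

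The members and all gene lists were chosen with earlier results of these data known. Genes with values on every array are the 8 highest and the lowest effects called, fixed members of known control points, and those called between experiments; list genes named are up to 4 called per direction, and Eif3b, Alb, the eIF2 kinases, Atf4 and the genes whose probes differ were added after their values were seen. The labels do not say that replicate numbers pair the animals, and deviations of animals with the same number correlated at -0.02 to 0.05. Alternatives changed scaling, background correction (normexp, offset 50, on median spot signals), filter, probe choice, blocks and animals left out. Leaving out 2 isoflurane animals with high albumin signal and blocking on scan day were added after seeing the data.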

Additional observations from a re-analysis of the deposited data

How the results depend on the processing

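Of the 30 genes that rose in the mean of both experiments, 21 were called under all 25 alternatives run. The other 9, which lost the call under at least 1, were Eef2k, Eef2kmt, Eif2s1, Eif2s2, Eif2s3, Eif3a, Eif3h, Eif3j and Eif5a2. Counted by gene, the alternative with every probe as a feature took the brightest probe alone. Calls on other probes, such as those of Eif4e and Eif6, do not enter these counts. Neither gene that fell kept its call throughout, and 12 of the 21 not called were called under none. Causes of these changes were not tested, except that fewer arrays or fewer features enter some fits by construction. Counts of members under the alternatives are given without the share of all features called in the same fits. With every probe as a feature, 71 of 118 member probes rose in the mean, 41 with CO2-O2 (1 fell) and 59 with isoflurane. Of these probes, 5 were higher and 8 lower among oil controls with isoflurane, and 16 higher and 9 lower among BDCM animals. The number that fell in the mean was 5 with quantile normalization, 0 with median scaling, without a filter, with slide as a fixed block or with the replicate block, and 1 with slide as a random block, with scan day as a block or without both isoflurane animals of high albumin signal. With CO2-O2, 9 rose with slide as a fixed block, and 1 fell with the mean of probes and without those animals; with isoflurane, 9 rose with slide as a fixed block and 1 fell with quantile normalization. The replicate block, on numbers not said by the labels to pair the animals, gave 26 rising in the mean, 11 with CO2-O2 and 19 with isoflurane. Among oil controls, 1 was higher with median scaling, no filter, the mean of probes, slide as a random block or without those animals. In the same comparison 6 were lower with median scaling, 4 with only the groups compared, and 1 with no filter, slide as a random block or without those animals. Among BDCM animals, higher calls numbered 1 with median scaling, 2 with no filter, 0 with only the groups compared and 3 without those animals, and lower calls 6, 0 with only the groups compared and 1 without those animals. Between experiments the share of all calls that were higher was 67.9% among controls and 69.2% among BDCM animals, 54.4% and 56.0% by quantile normalization, and 37.8% and 43.6% by median scaling. With the mean of probes Eef1a2 turned to 0.50 in the mean and 0.69 with isoflurane (adjusted p = 0.0206 and 0.0314), and Eif4e3 to -0.09 between BDCM groups. With quantile normalization Eif4g2 turned to -0.25 and -0.29 (adjusted p = 0.0032 and 0.0139). Leaving out 1 animal at a time, 27 to 29 rose and 0 to 2 fell in the mean, 11 to 22 rose and 0 fell with CO2-O2, and 18 to 27 rose and 0 to 1 fell with isoflurane. Between experiments 1 to 3 were higher and 1 to 3 lower among controls, and 1 to 8 higher and 2 to 4 lower among BDCM animals (8 without BDCM animal 2 and 1 without BDCM animal 3 of the CO2-O2 experiment). Blocks on slide as a fixed term, scan day or replicate could not be fitted between experiments. The arrays' signal does not limit members at their brightest probes, all well above background, but it does at the dim second probe of Eef1a2.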
